A study of Mus musculus with 18 samples.

Results

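Clozapine was compared with vehicle in the astrocyte fraction of mouse frontal cortex, as 2 clozapine against 2 vehicle RNA-seq libraries, 4 of the 18 libraries in the series. The libraries were chosen by their labels alone: HepaCAM-captured astrocytes, treatment, and the batch number that pairs 1 vehicle with 1 clozapine library. All animals, controls included, were of the strain B6;D2-Tg(S100B-EGFP)1Wjt/J, in which a green fluorescent reporter is driven by the S100B promoter. Animals received a daily intraperitoneal injection from postnatal day 60 to 74, of vehicle, of 10 mg/kg clozapine or of 1 mg/kg risperidone, and were killed at day 75. Each library was made from the pooled cortices of 5 animals, after depletion of endothelial cells and of the oligodendrocyte lineage and capture of microglia and neurons from the same pool. The 2 risperidone astrocyte libraries entered the same fit and served as a second drug for reference. The labels name male and female mice in 1 place and males in another.

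Clozapine is an antipsychotic used where other antipsychotics fail, and it binds serotonin, dopamine, muscarinic, adrenergic and histamine receptors. Astrocytes clear glutamate and potassium from the space around synapses, supply neurons with lactate and cholesterol, and carry several of the receptors that clozapine binds. They also change their gene expression when microglia release cytokines, a state called reactive. Antipsychotics are known to raise sterol synthesis genes in cultured glial cells.

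In the order of batch 1 and batch 2, the total count was 6.32 and 5.12 M for vehicle, 7.47 and 9.21 M for clozapine and 10.7 and 4.71 M for risperidone. Levels below are counts per M scaled by the trimmed mean of M values (TMM), written as CPM, unless said otherwise, and pairs of levels are always in batch order. The 20 astrocyte markers summed to 18160 and 19660 unscaled CPM in the vehicle astrocyte libraries, against 4021 and 3377 in vehicle microglia and 5050 and 9051 in vehicle neurons, so the label held. The fraction was not pure. The 20 oligodendrocyte markers summed to 32710 and 12560 unscaled CPM, more than the astrocyte list in batch 1, despite the depletion, and the 20 pan-neuronal markers to 5378 and 3889. Microglia markers summed to 628.4 and 2226 unscaled CPM, against 14850 and 7427 in the microglia fraction. The 15 endothelial markers summed to 227 and 257.7 unscaled CPM, against 354.8 and 273.8 in microglia and 191.4 and 88.91 in neurons, with Cldn5, a tight-junction protein of brain vessels, at 1.27 and 2.93. Both Xist, which marks the female inactive X, and the Y-linked Ddx3y were present in all 6 astrocyte libraries. Vehicle and clozapine libraries overlapped in both, Xist at 302 and 175 against 445 and 230 CPM and Ddx3y at 51.3 and 42.9 against 47.6 and 53.3. The part of sex balance between pools in the differences below was not tested.

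Few genes separated clozapine from vehicle once the spread between pools was counted. Of 31022 genes tested with edgeR's quasi-likelihood test and batch as a block, 4 passed a Benjamini-Hochberg adjusted p of 0.05, which is 0.0129% of the genes tested. Clozapine was higher for 2 of them (0.00645%) and lower for the other 2 (0.00645%), and each of the 4 differed the same way in both batches. At an unadjusted p under 0.05 there were 1504 genes (4.85%), of which 748 were higher in both batches (2.41%), 628 lower in both (2.02%) and 128 opposite between batches. That share is close to the threshold itself, so the unadjusted counts below describe and do not call. DESeq2 with the same design called 1 gene, and edgeR without the block called 0, where 388 had an unadjusted p under 0.05.

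The 2 batches agreed little across the transcriptome. Of all genes tested, 7828 were higher with clozapine in both batches (25.2%) and 8718 lower in both (28.1%), so 53.34% had the same sign in the 2 batches. The correlation of the 2 batch differences across genes was 0.06 (Pearson, n = 31022 genes, which are not independent replicates). Among the 10978 protein-coding genes that averaged at least 10 CPM it was -0.04. In that abundant set 4740 genes were higher in both batches (43.2%) and 1238 lower in both (11.3%). At an unadjusted p under 0.05 these shares were 4.75% and 0.929%. Counts of list members below are to be read beside these shares and those of all genes tested. The median difference of the abundant set was 0.06 on the log2 scale in batch 1 and 0.29 in batch 2. Batch 2 moved further: 1020 abundant genes differed at least 2-fold there, against 158 in batch 1. Only 13 did so the same way in both batches, and 35 did so in opposite ways.

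**Figure D1:**
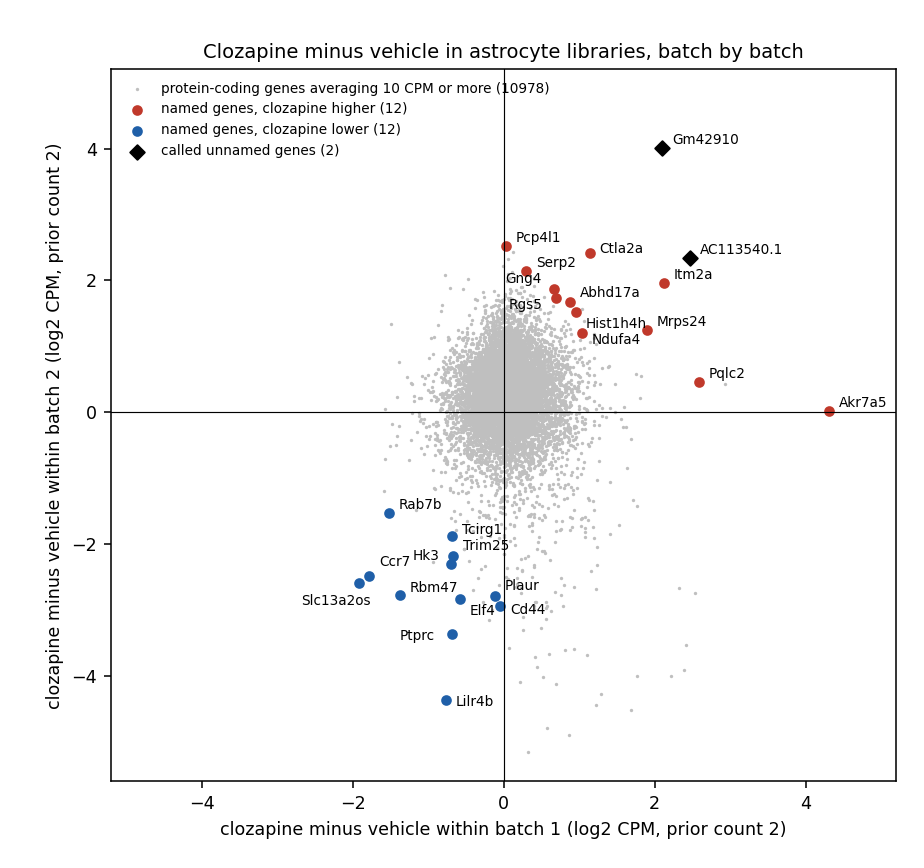
Clozapine minus vehicle (log2 CPM with a prior count of 2) within batch 1 on the horizontal axis and within batch 2 on the vertical axis, for 10978 abundant protein-coding genes in grey, the 12 named genes higher and 12 named genes lower with clozapine in red and blue, and 2 called unnamed genes as diamonds. The grey cloud is taller than it is wide and shows no diagonal, and a tail of genes points down in batch 2 only.

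Those 13 genes, chosen by their size in this same contrast and so given only as a description, came from several functions. Clozapine was higher for 9. They were Mrps24 and Mrps36, which encode proteins assigned to the mitochondrial small ribosomal subunit, Ndufa4, a subunit of cytochrome c oxidase, and Rab3a, a GTPase of synaptic vesicles. The rest were Sumo2, a protein modifier, Lage3, a subunit of a tRNA-modifying complex, the kinase Pim3, the transcription factor Sp8, and Ifit3, an antiviral effector. Rab3a stood at 50.9 and 53.3 CPM in vehicle, against 117 and 117 in clozapine, close within each group, yet its adjusted p was 0.592 (edgeR). Risperidone had it at 104 and 47.1 CPM, so that its batch 1 library lay near clozapine and its batch 2 library near vehicle. Lower with clozapine were Rbm47, an RNA-binding protein, Rab7b, a GTPase of late endosomes, Col15a1, a basement membrane collagen, and Nipal4, a magnesium transporter.

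The called gene of smallest p was Gm42910 (ENSMUSG00000105155.2, chromosome 5, 12192008 to 12194928, minus strand, GRCm39), a transcript model that the annotation marks as awaiting experimental evidence. Its levels were 36.1 and 4.26 CPM with vehicle, 156 and 72.9 with clozapine, and 79 and 9.85 with risperidone. Both clozapine libraries lay above both vehicle libraries, and risperidone lay between within each batch. Gm42910 rose with clozapine by 3.11 on the log2 scale (SE 0.39, n = 2 against 2, adjusted p = 1.67e-05, edgeR quasi-likelihood test), by 2.10 within batch 1 and 4.01 within batch 2. It was also above risperidone, by 1.97 (SE 0.37, adjusted p = 0.0204, edgeR). In microglia of the same pools it stood at 2.60 and 2.75 CPM in vehicle, against 12.6 and 14.1 in clozapine, and the difference between fractions in the clozapine effect did not pass (0.79, SE 0.91, adjusted p = 1, edgeR). In neurons it stood at 73.9 and 42.4 CPM in vehicle, against 125.6 and 33.6 in clozapine, and that difference between fractions did not pass either (2.70, SE 0.82, adjusted p = 1, edgeR). The astrocyte call was lost without vehicle 2 (log2 difference 2.61, adjusted p = 0.111) and was the 1 call that DESeq2 also made.

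AC113540.1 (ENSMUSG00000117962.2, chromosome 17, 30614594 to 30615007, minus strand), a processed pseudogene, also rose. It stood at 4.71 and 1.42 CPM in vehicle, 27.4 and 8.31 in clozapine, and 6.65 and 4.59 in risperidone. Clozapine exceeded vehicle by 2.51 on the log2 scale (SE 0.47, adjusted p = 0.0238, edgeR), by 2.47 and 2.33 within the batches, and the groups did not overlap. A processed pseudogene is a copy of a spliced transcript, so reads of its parent gene may be counted here, and its level is uncertain. The call was lost without vehicle 1, vehicle 2 or clozapine 1 (adjusted p = 0.128, 0.397 and 0.123), while the log2 difference stayed between 2.13 and 2.84.

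Lilr4b and Rbm47 fell with clozapine. Lilr4b (ENSMUSG00000112023.2, chromosome 10, 51356728 to 51362799, plus strand) encodes an immunoglobulin-like receptor of myeloid cells. It stood at 2.79 and 144 CPM in vehicle, 1.52 and 6.69 in clozapine, and 1.35 and 83.9 in risperidone. The groups overlapped, since only vehicle 2 was high among the 4 libraries compared, and risperidone 2 was high as well. The fitted difference was -3.48 (SE 0.55, adjusted p = 0.0019, edgeR), made of -0.77 within batch 1 and -4.37 within batch 2. Without vehicle 2 it was -2.39 (adjusted p = 0.841) and without clozapine 2 it was -0.78 (adjusted p = 1), so the call rested on those libraries. Lilr4b has close paralogs whose reads may be shared, and its level is uncertain to that extent.

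Rbm47 (ENSMUSG00000070780.12, chromosome 5, 66173892 to 66330461, minus strand) binds RNA and takes part in RNA editing and splicing. It stood at 8.37 and 41 CPM in vehicle, 3.04 and 5.72 in clozapine, and 6.03 and 26.3 in risperidone. Both clozapine libraries lay below both vehicle libraries. The difference was -2.24 (SE 0.40, adjusted p = 0.0161, edgeR), with -1.38 within batch 1 and -2.78 within batch 2. The call was lost without vehicle 2 (-1.83) or without clozapine 2 (-1.501), both at an adjusted p of 1. In microglia, where Rbm47 stood at 89 and 95.8 CPM in vehicle, against 139 and 127 in clozapine, no drop was seen. The difference between fractions was -2.77 (SE 0.82, adjusted p = 1, edgeR). In neurons Rbm47 stood at 1.9 and 36.7 CPM in vehicle, against 4.16 and 0.74 in clozapine, lower in batch 2 only, and the difference from astrocytes was 0.14 (SE 0.94, adjusted p = 1, edgeR).

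None of the 4 calls was made without the block, under upper quartile scaling or in a fit of all 18 libraries. Since the fraction is bulk RNA, fewer cells of a type and less RNA per cell cannot be told apart. Marker levels of other cell types are given once below, from microglia to vessels, and their part in the gene groups that lack such values beside them was not tested either.

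Beyond Lilr4b and Rbm47, the genes of smallest p among those lower in both batches had several functions, and none passed the adjusted threshold. Of 9 blood leukocyte markers tested, 4 were lower and 1 higher in both batches, with 0 called and 0 at an unadjusted p under 0.05. Ptprc encodes CD45, the antigen used to capture the microglia. It stood at 12.4 and 77.5 CPM in vehicle, 7.61 and 7.23 in clozapine, and 11.1 and 60.5 in risperidone (log2 difference -2.04, SE 0.43, adjusted p = 0.0998, edgeR). Both clozapine libraries were below both vehicle libraries, narrowly in batch 1 and widely in batch 2. Plaur, the urokinase receptor, had 5.93 and 89.3 CPM with vehicle and 5.48 and 12.7 with clozapine. Ccr7, a chemokine receptor of migrating leukocytes, had 2.27 and 16.4 against 0.457 and 2.7. Both overlapped between groups.

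Rab7b had the most even pair of differences among them, -1.52 in batch 1 and -1.53 in batch 2, at 15.3 and 24 CPM in vehicle against 5.17 and 8.09 in clozapine (adjusted p = 0.337, edgeR). Its risperidone levels were 7.38 and 17.2 CPM, between the 2 other groups in each batch. Slc13a2os, an antisense transcript whose reads cannot be separated from those of its partner without strand, stood at 5.93 and 15.1 against 1.37 and 2.27 CPM. The other 5 were Trim25, an ubiquitin ligase of antiviral signalling, Tcirg1, a proton pump subunit, the transcription factor Elf4, the hexokinase Hk3, and Cd44, an adhesion receptor of reactive astrocytes and leukocytes. Their vehicle 2 levels ranged from 27.3 (Elf4) to 60.9 CPM (Cd44), against 3.56 (Elf4) to 15.9 CPM (Tcirg1) in clozapine 2. In batch 1 Cd44 stood at 4.71 CPM with vehicle and 4.57 with clozapine, nearly the same.

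**Figure D2:**
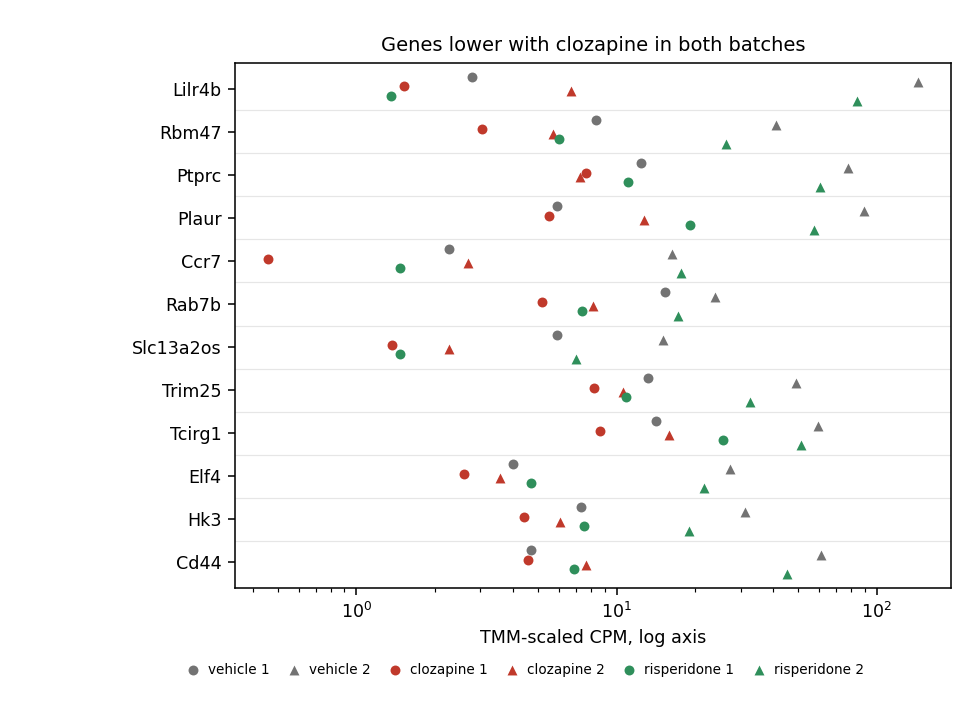
Level in each of the 6 astrocyte libraries (TMM-scaled CPM, log axis) of the 12 named genes lower with clozapine in both batches. Circles are batch 1, triangles batch 2, grey is vehicle, red clozapine and green risperidone. The grey and green triangles lie furthest right for nearly every gene, with Lilr4b at 144 and 83.9 CPM, while the red triangles stay near the circles.

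The promoters of 2 of these genes are shown because Rbm47 is called and Plaur is among the next, and both hold the letters AGAGGAAG, the core that the myeloid factor PU.1 prefers. The stretches are the 250 bases before the RefSeq start, 5′ to 3′ on the gene's strand (GRCm38.p6), with the match in capitals, as its reverse complement in Rbm47.
Rbm47, chr5:66151955-66152204, minus strand: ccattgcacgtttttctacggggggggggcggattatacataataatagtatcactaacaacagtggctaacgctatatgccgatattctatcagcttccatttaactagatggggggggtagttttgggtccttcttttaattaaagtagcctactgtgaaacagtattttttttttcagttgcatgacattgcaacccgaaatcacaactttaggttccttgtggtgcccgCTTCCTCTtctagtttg
Plaur, chr7:24462233-24462482, plus strand: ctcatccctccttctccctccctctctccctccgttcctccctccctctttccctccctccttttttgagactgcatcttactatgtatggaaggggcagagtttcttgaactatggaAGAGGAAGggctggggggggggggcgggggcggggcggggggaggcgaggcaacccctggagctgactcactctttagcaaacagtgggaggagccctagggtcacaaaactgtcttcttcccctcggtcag
The match began 17 bases before the start in Rbm47 and 132 before it in Plaur. Of 12 named lower genes 10 had a promoter window (250 bases before to 50 after the start), and AGAGGAAG was in 3 of them (Rbm47, Plaur and Hk3), against 4.55% of all 32851 windows. The overlapping form GAGGAAGT was in 0 of the 10 (3.2% of all windows), CCGGAAG, a wider ETS core, in 0 (8.86%), and a relaxed and a strict kappaB element of NF-kB in 1 and 0 (1.63% and 0.155%). The AP-1 form TGANTCA was in 2 (7.81%) and the E-box CACGTG in 2 (7.15%). Both strands were searched. In the 11 windows of the named higher genes the same 7 motifs, in that order, were in 0, 1, 2, 1, 0, 1 and 0. A match describes letters and not binding.

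The lower and higher genes were then looked up in the vehicle microglia and neuron libraries. The comparison did not use these libraries, but they came from the same animal pools as the vehicle astrocytes. Of the 10978 abundant protein-coding genes, 102 were lower in both batches at an unadjusted p under 0.05 (0.929%), and 522 were higher in both (4.75%). Of the 102, 94 (92.2%) had a higher mean level in vehicle microglia than in vehicle neurons, against 27.3% of all abundant genes. Of the 522, 37 (7.09%) did. The 10 CPM average includes vehicle 2, so a gene high only there can enter the abundant set. Without that filter, 564 of the 628 lower genes (89.8%) and 95 of the 748 higher genes (12.7%) had the higher level in microglia. Of all genes tested 55.9% had it. The median exonic length was 3189 bases for the higher genes, 5759.5 for the lower and 5212 for all.

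The microglia markers themselves did not follow that pattern in both batches. Their sum was 692.7 and 1798 CPM with vehicle and 1186 and 666 with clozapine, higher with clozapine in batch 1 and lower in batch 2. Of 20 markers 18 were higher in batch 1 and 19 lower in batch 2, 0 were higher in both, and only Tmem119, a microglial membrane protein, was lower in both. The risperidone sums were 1250 and 1492 CPM. Cx3cr1, the fractalkine receptor, stood at 22 and 64.5 CPM in vehicle, against 39.7 and 26.1 in clozapine. The part of microglial RNA in the named lower genes was not tested.

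Inflammatory signalling genes moved with those markers, oppositely in the 2 batches. Of 24 cytokines and chemokines, 19 were higher with clozapine in batch 1 and 18 lower in batch 2. Their median difference was 0.46 and -1.76 on the log2 scale, their sum 580.4 and 2162 CPM with vehicle and 691.6 and 708.7 with clozapine, and 0 were called. Risperidone gave 725.4 and 1634 CPM, so in batch 2 the clozapine library was the low one of the 3. Tnf, a cytokine by which microglia act on astrocytes, stood at 6.45 and 157 CPM in vehicle, 10.7 and 8.74 in clozapine, and 11.2 and 71.7 in risperidone. Without vehicle 2 or without clozapine 2 the fitted Tnf difference of -1.84 became 0.06 or 0.01. The list's median of -0.71 became 0.18 without vehicle 2 and 0.31 without clozapine 2. Cxcl12, a chemokine also made by vessels and neurons, lay on the other side, at 41.1 and 21.6 CPM in vehicle against 46.3 and 67.2 in clozapine.

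Of 18 NF-kB subunits and feedback genes, 0 were higher in both batches and 3 lower in both, all 3 at an unadjusted p under 0.05. Lower in both were 11.3% of abundant genes and 28.1% of all genes tested, and at that p 0.929% and 2.02%. Relb, a subunit of the slower noncanonical pathway, stood at 13.1 and 34.9 CPM in vehicle, against 6.85 and 15.4 in clozapine, a difference of -0.91 and -1.16 within the batches (adjusted p = 0.799, edgeR). Nfkbie, an inhibitor, stood at 9.07 and 36.4 against 8.52 and 8.53, and Bcl3, a coregulator, at 1.57 and 10.7 against 1.22 and 3.02. For all 3 vehicle 2 was the highest of the 4 libraries compared, and risperidone 2 had Bcl3 at 11.6 CPM. Without clozapine 2 the list's median of -0.52 became 0.0021, and without vehicle 2 it became 0.020. Complement genes had medians of 0.18 and -0.92, with 1 of 20 higher and 3 lower in both batches. C5ar1, the receptor for the fragment C5a, was the 1 lower in both at an unadjusted p under 0.05, at 3.31 and 36.4 against 2.43 and 5.4 CPM. MHC and antigen presentation genes had medians of 0.27 and -1.36, with 1 of 15 higher and 4 lower in both. Without clozapine 2 the fitted medians of the complement and MHC lists, -0.32 and -0.46, became 0.081 and 0.24, and without vehicle 2 they were -0.088 and -0.010.

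Interferon-stimulated genes divided within the list. Of 32 tested, 8 were higher in both batches and 8 lower in both, with a median of -0.12, while 4 were higher in both at an unadjusted p under 0.05 and 0 lower. Those 4 were Ifit1, Ifit3 and Ifit3b, which bind or block viral RNA, and Cmpk2, a nucleotide kinase. Ifit3 stood at 6.45 and 7.1 CPM in vehicle, 13.8 and 18.9 in clozapine, and 2.71 and 5.27 in risperidone. Ifit1 stood at 2.79 and 4.1, 9.74 and 10.1, and 5.17 and 3.74 CPM. Both had clozapine above vehicle and risperidone in each batch, and neither passed (adjusted p = 0.859 and 0.878, edgeR). Microglia of the same pools held Ifit3 at 17.7 and 4.87 CPM in vehicle, against 30.1 and 27.9 in clozapine. Ifit1 stood there at 53 and 3.28 against 117 and 43.4. Neurons held Ifit3 at 1.59 and 2.89 against 3.18 and 5.82 CPM, and Ifit1 at 2.38 and 3.37 against 1.22 and 3.6. Ifit3 and Ifit3b are near-identical copies, so reads may be split between them.

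**Figure D3:**
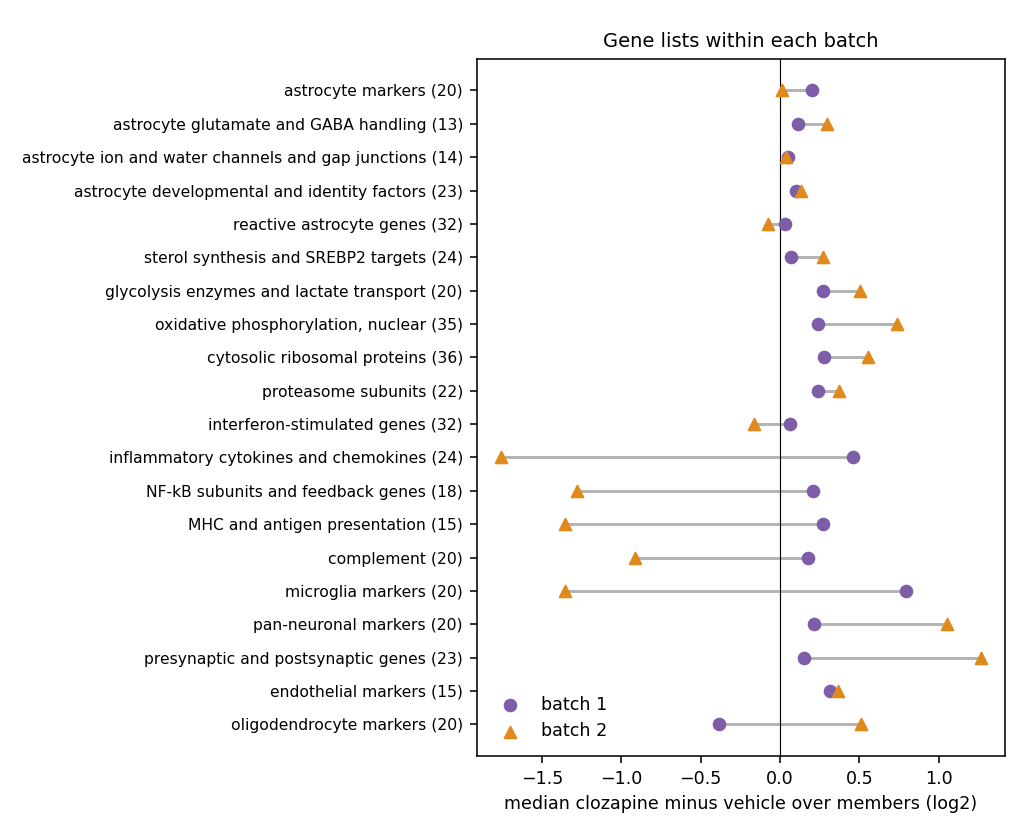
Median clozapine minus vehicle over the tested members of 20 gene lists (number tested in parentheses), as log2 differences within batch 1 (circles) and batch 2 (triangles). Immune and microglial lists lie right of 0 in batch 1 and left of it in batch 2, and neuronal and energy lists lie right of 0 in both. Astrocyte lists range from -0.08 (reactive genes, batch 2) to 0.30 (glutamate and GABA handling, batch 2).

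No astrocyte marker was called. Of the 20 astrocyte markers 7 were higher in both batches and 0 lower, beside 43.2% and 11.3% of abundant genes. Both clozapine libraries lay above both vehicle libraries for 2 of the 20 and below for 0, beside 26.2% and 5.75%. The list had 0 called, 0 at an unadjusted p under 0.05 and a median of 0.08, against 0.18 for all abundant genes. Aqp4, the water channel of the endfeet, stood at 365 and 294 CPM in vehicle, against 365 and 307 in clozapine (log2 difference 0.03, SE 0.36, adjusted p = 0.998, edgeR). Gja1, the main gap junction protein, stood at 828 and 703 against 886 and 722 CPM, and Slc1a2, the transporter that clears most synaptic glutamate, at 7422 and 6899 against 9140 and 6164. With an SE of 0.36 for Aqp4, a shift well under 2-fold could not be seen with these pools, and larger shifts could be missed too. Among the 4 called genes the log2 difference smallest in size was -2.24 (Rbm47). Ndufa4 at 1.13 (SE 0.31) and Ptprc at -2.04 (SE 0.43) did not pass. Under upper quartile scaling, which moved the median of all genes to -0.12, these 3 stood at -0.09, -0.06 and -0.05, so their direction depends on the scaling.

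Of 13 genes of glutamate and GABA handling 10 were higher in both batches and 0 lower, beside 43.2% and 11.3% of abundant genes. Their median was 0.17, beside 0.18 for all abundant genes, with 0 at an unadjusted p under 0.05. The median became 0.037 without clozapine 2 and 0.32 without clozapine 1, and for risperidone against vehicle it was 0.30. Slc6a11, the GABA transporter GAT-3, stood at 192 and 190 CPM in vehicle, against 254 and 309 in clozapine, without overlap, and at 342 and 162 with risperidone (adjusted p = 0.998, edgeR). Slc1a3, the glutamate transporter GLAST, stood at 2678 and 1440 against 2833 and 1973 CPM, Glud1, glutamate dehydrogenase, at 561 and 337 against 580 and 539, and Abat, GABA transaminase, at 288 and 196 against 353 and 240. The 14 channels and gap junction genes had a median of 0.03, with 5 higher and 1 lower in both. Kcnj10, the potassium channel of astrocytes, stood at 427 and 443 against 512 and 462 CPM. Atp1b2, a subunit of the sodium pump, stood at 1106 and 994 against 1278 and 1173 CPM.

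Among 23 developmental and identity factors, 9 were higher and 3 lower in both batches, with 1 in each direction at an unadjusted p under 0.05. Hey1, a target of Notch signalling, stood at 20.7 and 16.3 CPM in vehicle, against 33.3 and 31.6 in clozapine. Gli1, the readout of sonic hedgehog signalling in cortical astrocytes, stood at 13.1 and 10.9 against 7.91 and 4.43. The groups did not overlap for either gene, and risperidone had Gli1 at 16 and 17.2 CPM, above vehicle in both batches. Neither passed (adjusted p = 0.965 and 0.973, edgeR). Id1, a target of BMP signalling, stood at 5.75 and 5.84 against 10.5 and 7.88, and Notch2, a Notch receptor, at 120 and 157 against 100 and 116 CPM.

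Of 32 reactive astrocyte genes 6 were higher and 6 lower in both batches, 3 each at an unadjusted p under 0.05, and the median was -0.20. Gfap, the filament protein by which reactivity is usually read, was not chosen by the naming rule and differed oppositely between batches, at 79.3 and 154 CPM in vehicle against 90.8 and 77.3 in clozapine. On the lower side were Cd44, Hspb1, a small heat shock protein at 7.85 and 14 against 7.46 and 2.16, and Ggta1, a glycosyltransferase at 5.75 and 14.7 against 3.5 and 4.53. Gbp2, an interferon-induced GTPase, lay on the higher side at 2.44 and 6.15 against 11.9 and 7.45, as did Cp, the ferroxidase ceruloplasmin, at 10.8 and 15.1 against 19.2 and 24.9 CPM. Vehicle microglia held Cd44 at 38.1 and 95.3 CPM, Hspb1 at 105 and 30.2, and Ggta1 at 64.8 and 62.1. The same libraries held Gbp2 at 13.1 and 11.3 and Cp at 25.2 and 11 CPM. The part of microglial RNA in these differences was not tested. Thbs4 and Thbs1 encode thrombospondins, secreted proteins that promote synapse formation. They belong to a list of 21 synaptogenic and matrix proteins, of which 8 were higher and 3 lower in both batches (median 0.11). These 2 were its only members at an unadjusted p under 0.05. Thbs4 stood at 10.1 and 23 against 8.52 and 4.32 CPM. Thbs1 stood at 27.4 and 173 against 24.7 and 21.5. Vehicle microglia held Thbs1 at 599 and 378 CPM.

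Sterol synthesis genes, the group known to respond to antipsychotics, gave 12 of 24 higher and 1 lower in both batches, with a median of 0.19 (0.07 and 0.27 within the batches) beside 0.18 for all abundant genes. None of the 12 had an unadjusted p under 0.05, whereas the 1 lower in both batches did. The median became -0.0015 without clozapine 2 and 0.39 without clozapine 1, and for risperidone against vehicle it was 0.32. Fdps, an enzyme of isoprenoid synthesis, stood at 26.3 and 21.6 CPM in vehicle, 36.4 and 32.6 in clozapine, and 46.2 and 34.7 in risperidone. Insig1, a sterol sensor, stood at 110 and 83.2 against 133 and 153, and Idi1 at 19.5 and 14.5 against 24 and 25.7 CPM.

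Energy and protein synthesis genes were higher in both batches more often than the 43.2% of abundant genes, though 0 were called. Of 35 nuclear oxidative phosphorylation genes 30 were higher in both batches and 0 lower, with a median of 0.53 and 7 at an unadjusted p under 0.05. Ndufa4 stood at 34.5 and 17.8 CPM in vehicle, 70.9 and 41.6 in clozapine, and 48.2 and 25.8 in risperidone (log2 difference 1.13, SE 0.31, adjusted p = 0.455, edgeR). Within each batch clozapine was highest and vehicle lowest. Ndufb9 and Ndufa1, subunits of complex I, stood at 73.1 and 21.6 against 111 and 54.1, and at 26.3 and 12.1 against 46.1 and 21.4 CPM. Atp5c1, the gamma subunit of ATP synthase, stood at 101 and 62.8 against 174 and 113 CPM. The list's median was 0.44 without vehicle 2 and 0.16 without clozapine 2.

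Of 36 cytosolic ribosomal protein genes 28 were higher in both batches and 0 lower, with a median of 0.48, 3 of them at an unadjusted p under 0.05. Rpl27 stood at 20.7 and 14.8 CPM in vehicle, against 41.8 and 21.9 in clozapine, and Rps14 at 77.2 and 30.5 against 120 and 55.4. Without clozapine 2 the median was 0.16, and for risperidone against vehicle it was 0.46. Glycolysis gave 13 of 20 higher in both and 0 lower, with a median of 0.41 that became 0.19 without clozapine 2. Ldha, lactate dehydrogenase A, stood at 71.1 and 67.5 against 114 and 109 CPM, and Pgam1 at 49.5 and 34.6 against 53.4 and 79.1. Of 22 proteasome genes 16 were higher and 1 lower in both, with a median of 0.30 that became 0.15 without clozapine 2, among them Psma7 at 28.6 and 32.8 against 46.1 and 54.5 and Psmb6 at 12.7 and 16.9 against 25.4 and 23.3 CPM. The higher genes at large had the shorter exonic length given above, and the part of transcript length in these values was not tested.

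None of the neuronal or synaptic genes was called, though most had higher values with clozapine, mainly in batch 2. The pan-neuronal markers summed to 5928 and 3141 CPM with vehicle, 6452 and 6613 with clozapine, and 5593 and 2943 with risperidone. In that list 17 of 20 were higher in both batches and 0 lower, beside 43.2% and 11.3% of abundant genes. Its medians were 0.21 and 1.05 within the batches. Of 23 synaptic genes 17 were higher in both and 0 lower, with medians of 0.15 and 1.27. Of these genes 12 were higher in both at an unadjusted p under 0.05, beside 4.75% of abundant genes. The fitted medians of 0.70 and 0.75 became 0.52 and 0.44 without vehicle 2, and 0.17 and 0.16 without clozapine 2. Snap25, which fuses synaptic vesicles, stood at 704 and 375 CPM in vehicle, against 866 and 986 in clozapine. Rbfox3, the nuclear antigen NeuN, stood at 147 and 71.2 against 150 and 153.

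The same low vehicle 2 level recurred in Shank1, a postsynaptic scaffold at 853 and 204 against 884 and 870 CPM, and in Celf4, a splicing factor at 225 and 73.2 against 250 and 217. Syn1 and Cplx1, proteins of vesicle release, stood at 195 and 118 against 249 and 354, and at 288 and 137 against 331 and 408 CPM. Stmn3 and Tubb3, of the microtubules, had flatter vehicle levels, at 29.1 and 28.4 against 49.5 and 56.6, and at 21.6 and 21.1 against 27.2 and 45.8 CPM. Genes induced by neuronal activity included Egr4 at 7.85 and 3.94 against 14.2 and 12.6, Nr4a1 at 71.7 and 56.8 against 85.5 and 135, and Arc at 120 and 60.6 against 136 and 144 CPM. In their list 9 of 23 were higher and 3 lower in both batches, and the median of 0.32 became 0.039 without clozapine 2 and 0.19 without vehicle 2. The part of neuronal RNA in the differences of shared genes, energy genes included, was not tested.

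**Figure D4:**
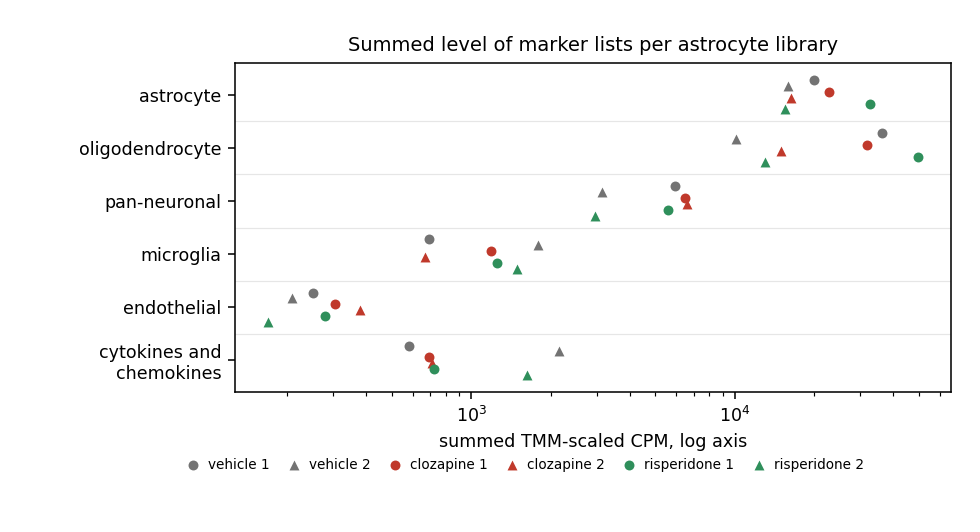
Summed level (TMM-scaled CPM, log axis) of 5 marker lists and of the cytokine and chemokine list in each astrocyte library. Circles are batch 1, triangles batch 2, grey is vehicle, red clozapine and green risperidone. In batch 2 the vehicle and risperidone libraries lie together, with low neuronal and high microglial and cytokine sums, and clozapine 2 lies apart from both, for example at 6613 CPM of neuronal markers against 3141 and 2943.

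In these sums vehicle 2 and risperidone 2 were closer to each other than either was to clozapine 2, except for the oligodendrocyte list. Of 15 endothelial markers 0 were called, 10 were higher in both batches, 2 lower in both and 3 opposite. Of abundant genes 43.2% were higher in both and 11.3% lower. At an unadjusted p under 0.05, 6 of the markers were higher in both, beside 4.75% of abundant genes. The endothelial sums were 250.2 and 208.1 CPM with vehicle, 303.4 and 377.3 with clozapine, and 279.7 and 169 with risperidone. Ptprb, a phosphatase of vessels, stood at 27.9 and 25.9 against 51.1 and 47.2 CPM, a difference of 0.87 and 0.86 within the batches. Slco1a4, a transporter of the blood-brain barrier, stood at 25.1 and 7.26 against 26.9 and 26.8, and Flt1, a VEGF receptor, at 67.8 and 28.4 against 68.6 and 97.1, with little difference in batch 1. The endothelial median was 0.74 in the fit, but 0.31 and 0.36 within the batches. The fitted median became 0.25 without clozapine 2 and 0.29 without vehicle 1. Oligodendrocyte markers went opposite ways, with sums of 36052 and 10144 CPM with vehicle and 31639 and 14979 with clozapine. Mbp, myelin basic protein, differed far more between batches than between treatments, at 15388 and 1495 against 14308 and 2128 CPM. Hbb-bs, a blood haemoglobin gene, stood at 123 and 183 against 149 and 96.3 CPM. Ttr, made by choroid plexus, was high in clozapine 1 alone, at 145 CPM, and between 0.862 and 26.5 in the other 5 libraries.

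None of the 12 named higher genes passed the adjusted threshold. Itm2a, an endothelial membrane protein, stood at 2.27 and 4.58 CPM in vehicle, 10.8 and 18.6 in clozapine, and 11.1 and 4.59 in risperidone (log2 difference 2.09, SE 0.49, adjusted p = 0.278, edgeR). Its batch differences were 2.12 and 1.96. Rgs5, a regulator of G protein signalling abundant in pericytes, stood at 37.3 and 19.9 against 60.4 and 66.9, and Ctla2a, a protease inhibitor with a close paralog that makes its level uncertain, at 4.88 and 2.21 against 11.1 and 13 CPM. Mrps24 stood at 6.1 and 7.73 CPM in vehicle, against 23.6 and 18.7 in clozapine, and at 16.2 and 7.64 with risperidone. Abhd17a, which removes palmitate from synaptic proteins, stood at 34.9 and 18 against 64.7 and 57.6. For these genes both clozapine libraries lay above both vehicle libraries.

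Gng4, a G protein subunit, stood at 20.7 and 16.1 CPM in vehicle, 33.2 and 59.6 in clozapine, and 17.5 and 6.96 in risperidone. Against vehicle it did not pass (adjusted p = 0.392), and against risperidone it did (log2 difference 1.98, adjusted p = 0.0204, both edgeR). In microglia of the same pools Gng4 stood at 12.6 and 16.1 CPM in vehicle, against 12.4 and 56.2 in clozapine. In neurons it stood at 42.2 and 76 against 57.2 and 171. Pcp4l1, related to a calmodulin regulator, was high in clozapine 2 alone among the astrocyte libraries, at 126 CPM against 12.9 to 50.2 in the other 5. Without that library its positive difference became -0.07. The same pool was high in the other fractions. In microglia Pcp4l1 stood at 20.2 and 30.6 CPM in vehicle, against 18.5 and 106 in clozapine. In neurons it stood at 83.5 and 190 against 120 and 297. Serp2, a protein of the endoplasmic reticulum, stood at 68.7 and 16.3 against 84.6 and 73 CPM. Hist1h4h, a histone H4 gene with near-identical copies and so of uncertain level, stood at 29.1 and 18.8 against 56.6 and 54.2.

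Akr7a5 and Pqlc2 were high in a single library. Akr7a5, an aldehyde reductase, stood at 447 CPM in clozapine 1 against 22.3 in vehicle 1, while clozapine 2 and vehicle 2 stood at 8.31 and 8.2. Pqlc2, a lysosomal transporter of cationic amino acids, stood at 338 against 56.1 CPM in batch 1 and 52.7 against 38.2 in batch 2. The 2 genes lie head to head on chromosome 4 (GRCm39), Pqlc2 at 139021340 to 139038019 on the minus strand and Akr7a5 at 139038055 to 139045737 on the plus strand. Their RefSeq starts are separated by 35 bases, shown because both genes share that stretch and both are high in the same library.
Akr7a5 and Pqlc2, between the starts, chr4:139310709-139310743, GRCm38.p6, plus strand: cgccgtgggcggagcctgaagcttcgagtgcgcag
Counting took no account of strand, so reads near the starts cannot be assigned to 1 gene with certainty. In the microglia of the same pools Akr7a5 stood at 9.89 and 7.41 CPM in vehicle, against 34.9 and 6.14 in clozapine. In the neurons it stood at 143.7 and 97 against 74.6 and 35.4 CPM, so the batch 1 difference had opposite signs in the 2 fractions. Pqlc2 stood at 25.9 and 13.5 against 40 and 30.5 CPM in microglia, and at 8420 and 31 against 476.2 and 85.1 in neurons, where vehicle 1 was the high library. Neither gene passed in astrocytes (adjusted p = 0.0776 and 0.372, edgeR), and without clozapine 2 both did.

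**Figure D5:**
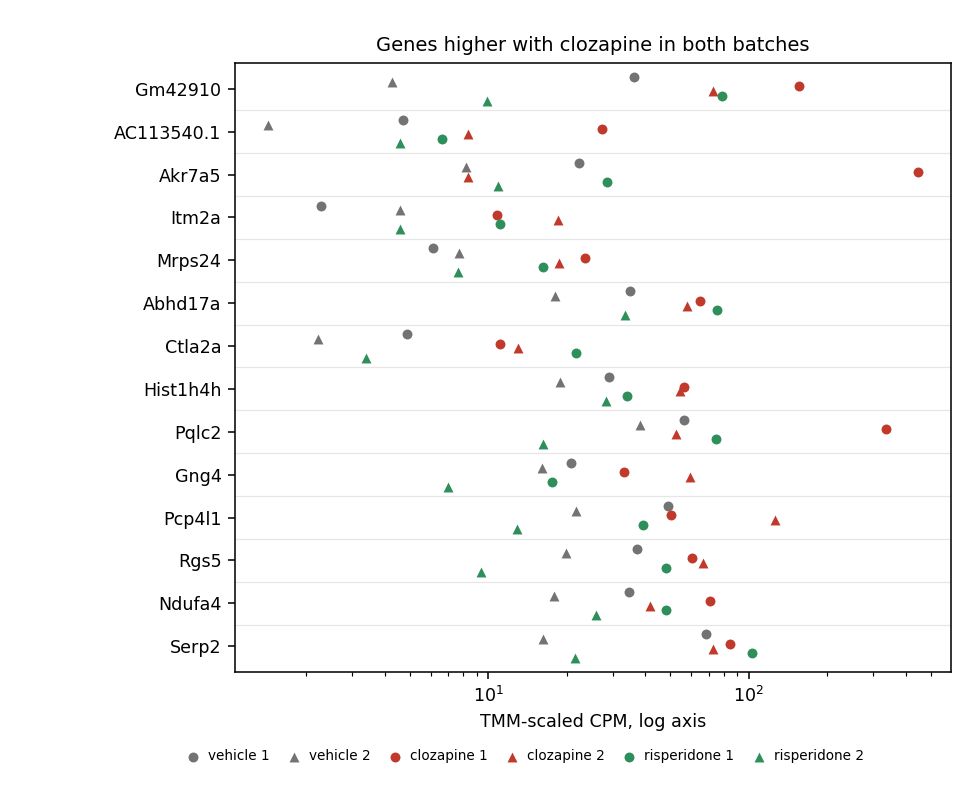
Level in each of the 6 astrocyte libraries (TMM-scaled CPM, log axis) of the 2 called unnamed genes and the 12 named genes higher with clozapine in both batches, with symbols as in the plot of lower genes. Akr7a5 and Pqlc2 stand out in clozapine 1 only, at 447 and 338 CPM, whereas Itm2a, Mrps24 and Hist1h4h have both red points to the right of both grey ones.

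None of the receptors that clozapine binds was called. The muscarinic receptor Chrm1 averaged 69.5 CPM over the 4 libraries compared, beside a median of 36.6 CPM over abundant genes. Vehicle neurons held more of it, at 115.8 and 223.5 CPM, and the part of neuronal RNA in its astrocyte level was not tested. Of 11 genes of dopamine receptors and metabolism, 2 were higher and 2 lower in both batches, with a median of 0.06. Of 13 serotonin receptor genes 2 were higher and 3 lower (median -0.03). Of 16 muscarinic, adrenergic and histamine receptor genes 8 were higher and 1 lower (median 0.16). Higher and lower in both batches were 25.2% and 28.1% of all genes tested, and 43.2% and 11.3% of abundant genes. None had an unadjusted p under 0.05 with the same direction in both batches. The summed levels of the serotonin list were 97.3 and 98.1 CPM with vehicle and 91.3 and 94.3 with clozapine. Those of the muscarinic, adrenergic and histamine list were 281.7 and 261.1 against 316.2 and 306. The 4 receptors of highest level were the muscarinic receptors Chrm1 and Chrm3 and the adrenergic receptors Adra1a and Adrb1. Chrm1 stood at 69.7 and 59.3 CPM in vehicle, against 72.6 and 76.4 in clozapine, Chrm3 at 35 and 28.1 against 38.3 and 31.1, Adra1a at 30.2 and 27.8 against 35.8 and 38.7, and Adrb1 at 32.3 and 24.8 against 34.7 and 29.8. Their adjusted p was 0.998 each (edgeR). Clock genes gave 12 of 18 higher and 1 lower in both batches, with a median of 0.24 that became 0.10 without clozapine 2 and 0.51 without clozapine 1, as in Nr1d1, a repressor of the clock, at 73.6 and 70.2 against 107 and 103 CPM, Bhlhe40 at 94.3 and 79.2 against 118 and 155, and Tef at 134 and 71.8 against 148 and 148. Genes induced by glucocorticoids split 7 higher and 6 lower, with Zbtb16 at 41.8 and 24.5 against 55.7 and 51.2 and Plin4, a lipid droplet protein, at 15.2 and 13.6 against 5.17 and 9.39 CPM.

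The clozapine libraries were also set against risperidone in the same fit, to ask whether the differences belong to clozapine. edgeR called 10 genes (0.0322%), 6 higher and 4 lower with clozapine, where 1144 genes had an unadjusted p under 0.05. Of those described above, Gm42910, Pqlc2 and Gng4 were higher and Lilr4b, Plaur and Tcirg1 lower. Plaur differed by -2.04 (adjusted p = 0.0357) and Tcirg1 by -1.64 (adjusted p = 0.0497, edgeR), at risperidone levels of 19.2 and 57.6 and of 25.7 and 51.3 CPM, above clozapine in each batch. Lilr4b differed by -2.65 (adjusted p = 0.0497, edgeR), but in batch 1 it stood at 1.35 CPM with risperidone and 1.52 with clozapine. Rbm47 did not pass (-1.67, adjusted p = 0.177), nor did AC113540.1 (1.47, adjusted p = 0.608, edgeR). This comparison uses the same clozapine libraries as the one with vehicle. Without clozapine 1 the count was 729 and without risperidone 2 it was 57.

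Whether the clozapine difference was particular to astrocytes was tested as an interaction over all 18 libraries. Against microglia edgeR called 0 of 37310 genes (0%), where 806 had an unadjusted p under 0.05, and DESeq2 was not run for it. The smallest unadjusted p among the genes named here was that of Rab7b, lower by 1.57 in astrocytes and at 17.6 and 13.9 CPM with vehicle against 24.5 and 28.6 with clozapine in microglia (interaction -2.31, adjusted p = 1). Lilr4b in microglia stood at 287 and 302 CPM in vehicle, against 536 and 396 in clozapine (interaction -4.03, SE 1.15, adjusted p = 1, edgeR). Ptprc stood at 309 and 217 against 320 and 312 CPM there. Neurons showed the batch 2 pattern of the astrocytes for these genes. Lilr4b stood there at 2.22 and 141.4 CPM in vehicle, against 2.45 and 0.635 in clozapine, and Ptprc at 3.49 and 68.7 against 3.79 and 2.43. Plaur stood at 4.12 and 133.1 against 9.43 and 1.59, and Tnf at 4.28 and 169.3 against 5.88 and 1.06. The 20 microglia markers had a median difference of 1.44 in batch 1 and -3.64 in batch 2 in neurons. Against neurons 1 gene was called (0.00268%), where 1454 had an unadjusted p under 0.05. No gene named here passed either test, so none is shown to respond in astrocytes alone.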

How the data were processed

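RNA-seq counts of the 6 astrocyte libraries (2 each of vehicle, clozapine and risperidone) were analysed, with the other 12 libraries only for interactions and marker levels. The authors deposited counts per gene. They were made with featureCounts (v2.0.8), per the file headers, from exons summed by gene: strand was not set, a read could count for several overlapping genes, and the reads of a pair were counted singly. Genes that overlap, lie antisense or share near-identical copies are therefore uncertain. The build is GRCm39 and FastQC was run, per the submitters' processing notes, with the aligner not given in the sources used here. Per the labels' protocols, libraries came from 20 ng of RNA depleted of ribosomal RNA and were read as paired ends. The 37 mitochondrial features held 0 counts.

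Symbols came from GENCODE vM21 by identifier (52029 of 56953 identifiers, 96.2% of counts) and promoters from RefSeq (GRCm38.p6). R 4.3.3, edgeR 4.0.16 and DESeq2 1.42.0 were used. Genes passed filterByExpr, libraries were scaled by TMM, and the model held treatment and batch, with 2 residual degrees of freedom (6 in the fit of all 18 libraries, with batch within fraction). The common biological coefficient of variation was 0.357. Log2 differences within a batch use a prior count of 2. Labels name the batch, so same-numbered libraries were paired: deviations from group means correlated at 0.197 between vehicle and clozapine, 0.529 between vehicle and risperidone and 0.268 between clozapine and risperidone. The script was tested on simulated data. Precision is limited by 2 pools a group.

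Members, lists and alternatives were chosen with earlier results of these data known. Up to 12 genes per direction were named: called genes, then those of smallest p, the same way in both batches, averaging at least 2 CPM, with predicted genes and pseudogenes skipped unless called. From each list up to 4 members of smallest p that went the same way in both batches were named, besides 10 defining markers and the 4 receptors of highest level. Only part of these are printed, and a few are not reported here. Gfap, Tnf, Xist, Ddx3y and the 13 genes of 2-fold difference in both batches were named after values were seen. Alternatives were the block, DESeq2, RLE and upper quartile scaling, 2 other low-count filters, other sets of libraries, other thresholds, and each library left out with the same genes tested. No list was tested as a set. A combined table of the series was not used.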

Additional observations from a re-analysis of the deposited data

Results flagged for a closer look

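Gm36264, a long noncoding RNA, was the 1 gene whose clozapine difference was called as unlike between astrocytes and neurons, by an interaction term. The clozapine minus vehicle difference in astrocytes exceeded that in neurons by 5.95 on the log2 scale (SE 0.71, adjusted p = 0.00013, edgeR quasi-likelihood test over 37310 genes). In astrocytes its levels were 12.8 and 4.66 CPM with vehicle and 12.7 and 9.77 with clozapine, batch 1 first. In neurons they were 1259 and 282.6 CPM with vehicle and 37.9 and 4.44 with clozapine. The neuronal vehicle libraries were the high ones, and the astrocyte groups overlapped. The call was lost without a block and with each animal pool as the block. Groups of 2 libraries are too small for the test of single outlying samples.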

How the results depend on the processing

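The 4 genes called for clozapine against vehicle became 0 with no replicate block (388 at an unadjusted p under 0.05), 1 with DESeq2, 0 with upper quartile scaling (1279 unadjusted), 0 with all 18 libraries (1813 unadjusted), 23 with no low-count filter, 26 with a filter of 1 CPM in 2 libraries and 35 with only the 4 libraries. RLE scaling and an adjusted p under 0.10 gave 6, and a 2-fold minimum 4. With a library left out the count ran from 7 (without vehicle 2, none of the 4 main calls kept) to 945 (without clozapine 1). It was 38 without vehicle 1, 30 without clozapine 2, 14 without risperidone 1 and 57 without risperidone 2. Such fits have 1 residual degree of freedom, and the lone library is assumed to vary like the others. The cause was not tested. Against risperidone the 10 calls became 0 with no replicate block, 5 with DESeq2 and 17 with RLE scaling, and 9 to 729 with a library left out. The interaction with microglia, at 0, gave 0 to 3, and that with neurons, at 1, gave 0 without the block, 0 with the animal pool as the replicate block and 1 to 15 with a library left out. Upper quartile scaling turned Aqp4 (-0.092), Gja1 (-0.057), Slc1a2 (-0.052) and Ddx3y (-0.0024), and dropping the block turned Mbp (-0.039). Leaving out a library turned the direction of Pcp4l1 (-0.067 to 2.64), Tnf (-3.84 to 0.057), Ttr (-1.60 to 3.89), Cxcl12 (-0.0093 to 1.82), Flt1 (-0.042 to 1.84), Thbs1 (-3.25 to 0.11), Rbfox3 (-0.0060 to 1.14), Gfap (-1.02 to 0.21), Glud1 (-0.053 to 0.78), Hbb-bs (-0.99 to 0.34), Cx3cr1 (-1.08 to 0.58), Slc1a3 (-0.15 to 0.66), Atp1b2 (-0.027 to 0.44), Mbp (-0.32 to 0.70), Kcnj10 (-0.025 to 0.34), Ddx3y (-0.31 to 0.50), Gja1 (-0.11 to 0.25), Slc1a2 (-0.16 to 0.29) and Aqp4 (-0.18 to 0.22). With 2 pools a group and 4.71 to 10.7 M counts a library, the called log2 difference smallest in size was -2.24 (Rbm47, main fit). Some larger ones did not pass, such as that of Ccr7 (-2.55).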
